A study of Homo sapiens with 8 samples.

Results

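The genes described here are the core autophagy machinery and the main cargo receptors, measured in H1299 cells after knockdown of USF1 or of UGT1A3. Members were the probe sets whose platform annotation gives exactly 1 gene symbol equal to one of 44 listed genes. All 44 genes had such a probe set, and together they held 142 of the 49395 probe sets on the array, with 1 to 8 per gene. The 44 genes stood among 18132 genes with a named probe set.

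H1299 is a long-used line of human non-small cell lung carcinoma cells that makes no p53 protein. RNA was measured on 8 one-colour Affymetrix arrays in 4 groups: cells with short hairpin RNA against USF1 (USF1 knockdown, 3 arrays), their controls (USF1 control, 3 arrays), cells with short hairpin RNA against UGT1A3 (UGT1A3 knockdown, 1 array) and their control (UGT1A3 control, 1 array). USF1 is an E-box-binding transcription factor, and UGT1A3 is an enzyme that attaches glucuronic acid to lipophilic compounds. The labels give neither the number or sequence of the hairpins nor the time after transfection. They also do not say that numbered arrays hold separate cultures, and each p-value then reflects array-to-array spread alone, which may be technical. In bulk RNA, a change in level per cell and a change in the mix of cells cannot be told apart.

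Autophagy encloses cytoplasm in a double membrane and delivers it to the lysosome. The ULK kinase complex starts the process, a class III phosphatidylinositol 3-kinase marks the site with PI3P, and the lipid-transfer protein ATG2 with the scramblase ATG9 feeds the growing membrane. ATG8 proteins, the LC3 and GABARAP families, are then joined to phosphatidylethanolamine by a ubiquitin-like conjugation cascade, and cargo receptors bind them to bring in selected material. Many of these steps are controlled on the proteins, so mRNA levels describe the supply of parts and not the rate of autophagy.

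Intensities are the authors' values, whose log2 scale was inferred from their range, and differences are knockdown minus control on that scale. Folds and percentages of control rest on that inference. Median log2 intensity was 6.53 to 6.55 on the 3 USF1 knockdown arrays and 6.53 to 6.55 on the 3 USF1 control arrays. It was 5.63 on the UGT1A3 knockdown array and 5.59 on its control, so each knockdown was compared only with its own control. The probe set with the highest mean stood for each gene. A dim limit was set at percentile 40 of all probe set means (5.63 in the USF1 arrays, 4.76 in the UGT1A3 pair), dimmer genes were left out, and all 44 genes lay above that limit in both sets. USF1 itself, on its 1 probe set, had 6.06, 5.88 and 6.13 in USF1 knockdown arrays and 6.31, 6.55 and 6.42 in their controls, which is 75.6% of the control level (limma adjusted p = 0.00818). UGT1A3 had only probe sets shared across the UGT1A locus, and all 9 lay under the dim limit. They differed by -0.45 to 0.06 in the UGT1A3 pair, so its knockdown was not checked at a measurable level. Of 6 markers fixed for the carcinoma line, KRT8, KRT18 and VIM were bright, while KRT19, EPCAM and CDH1 were dim. KRT8 was the only one of them past the threshold, upward. Among markers of other cells, 1 of 6 fibroblast, 1 of 4 measured leukocyte, 2 of 4 endothelial and 4 of 6 alveolar and airway genes were bright. None of these 8 passed (at an adjusted p of 0.05). Bright meant only a mean above the dim limit and does not show clear expression. The endothelial genes PECAM1 and VWF lay at that limit, with means of 5.63 to 5.64 in USF1 knockdown and control arrays. Only the leukocyte gene CD68 was high, at 9.37 in USF1 knockdown arrays and 9.46 in controls. The others reached at most 6.96 (AGER, USF1 knockdown).

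After USF1 knockdown the autophagy genes moved in both directions. The largest fall was in RB1CC1 (FIP200), the scaffold of the ULK complex, at 58.5% of its control level. The largest rise was in the ATG8 protein gene GABARAPL1, at 149.3%. The receptor genes divided, with SQSTM1 and OPTN higher and FUNDC1 and CALCOCO2 lower. In all, 10 members rose, 6 fell and 28 did not pass (limma, Benjamini-Hochberg over 11448 genes, adjusted p of 0.05). That is 36.4% of the members, against 40.7% of all tested genes that passed (22.0% rose and 18.7% fell), a share near the background that is no result about the members. Over 15 alternatives the members' share was the larger in 5, for example 52.3% of members against 46.9% of all genes with an intensity trend and robust prior, and the smaller in 10. Their median change was 0.02, against 0.01 over all tested genes. Only 8 of the 44 passed and also changed by at least 1.2-fold, which is 18.2%, against 14.7% of all tested genes. The groups of 3 arrays did not overlap for 24 members, or 54.5%, against 53.6% of all tested genes. These 24 held all 16 that passed, so a lack of overlap adds no support to a call.

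**Figure D1:**
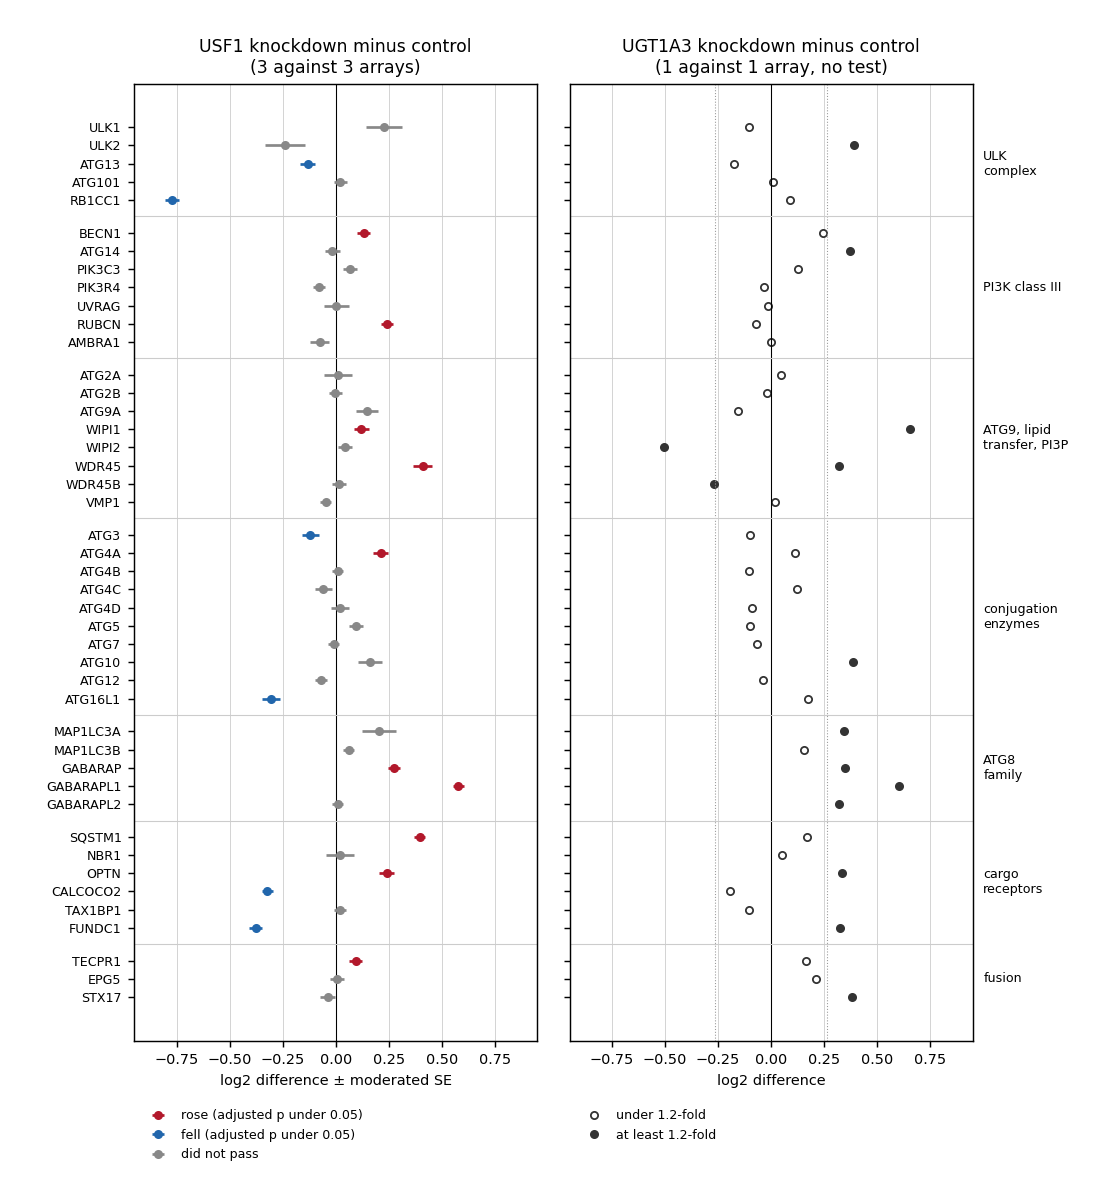
The 44 autophagy genes ordered by step. The left panel gives the log2 difference after USF1 knockdown with its moderated standard error (3 against 3 arrays), coloured by the limma call, and the right panel gives the difference between the UGT1A3 knockdown array and its control, with dotted lines at 1.2-fold. RB1CC1 lies far left and GABARAPL1 far right after USF1 knockdown. Among the ATG8 genes GABARAPL2 lies at 0.01 in the left panel and, on another probe set, at 0.32 in the right.

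Because USF1 binds the E-box CACGTG, the RefSeq promoters of the members (GRCh38.p14, 250 bases before to 50 after the gene start) were searched on both strands. Of the 44 genes, 37 were in the promoter table, and RB1CC1, UVRAG, WDR45B, ATG4D, MAP1LC3A, EPG5 and STX17 were not matched. An E-box lay in 2 of the 37, or 5.41%, against 8.77% of 27305 genes in the table. These were ATG3, which fell, and ATG14, which did not pass, and none of the 10 genes that rose held one. ATG3 also held TCACGTGA, the core of the CLEAR element of lysosomal genes, which contains an E-box and was found in 1.18% of genes. The antioxidant response element TGACNNNGC lay in ATG101, CALCOCO2, MAP1LC3B and TECPR1, or 10.8%, against 16.1% of genes. The ATF4 and CEBP composite TGATGCAAT lay in no member, against 0.293% of genes. A match describes letters and is no evidence of binding, and a missing match concerns only these windows. Below are 170 bases of each 300-base window, read 5′ to 3′ on the gene's strand with matches in capitals. The first 2 hold the E-boxes, the next 2 hold the antioxidant element in genes that passed, and the last 2 are the ATG8 genes that rose.
ATG3, chr3:112561943-112562112, minus strand: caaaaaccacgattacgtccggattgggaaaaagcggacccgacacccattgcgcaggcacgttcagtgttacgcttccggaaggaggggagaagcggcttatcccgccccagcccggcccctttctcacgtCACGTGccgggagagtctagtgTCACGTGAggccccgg
ATG14, chr14:55411811-55411980, minus strand: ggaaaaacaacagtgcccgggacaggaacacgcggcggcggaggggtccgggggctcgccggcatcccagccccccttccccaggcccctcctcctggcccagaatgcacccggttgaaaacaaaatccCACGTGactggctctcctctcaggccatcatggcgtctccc
CALCOCO2, chr17:48830885-48831054, plus strand: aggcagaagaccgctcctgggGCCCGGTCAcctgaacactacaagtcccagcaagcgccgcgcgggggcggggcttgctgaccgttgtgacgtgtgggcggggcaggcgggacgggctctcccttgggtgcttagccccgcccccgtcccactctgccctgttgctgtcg
TECPR1, chr7:98252213-98252382, minus strand: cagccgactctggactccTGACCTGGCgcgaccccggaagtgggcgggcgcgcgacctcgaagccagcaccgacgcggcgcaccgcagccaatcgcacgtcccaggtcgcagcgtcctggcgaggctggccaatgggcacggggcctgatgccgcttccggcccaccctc
GABARAPL1, chr12:10212727-10212896, plus strand: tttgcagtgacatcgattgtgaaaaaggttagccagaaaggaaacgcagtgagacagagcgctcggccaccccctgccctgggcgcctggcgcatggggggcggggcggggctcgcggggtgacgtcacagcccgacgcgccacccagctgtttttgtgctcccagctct
GABARAP, chr17:7242430-7242599, minus strand: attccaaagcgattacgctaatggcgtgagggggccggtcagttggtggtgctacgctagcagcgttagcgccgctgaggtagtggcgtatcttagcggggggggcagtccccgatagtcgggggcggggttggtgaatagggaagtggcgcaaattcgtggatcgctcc

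The counts given for each step stand beside 22.0% of all tested genes that rose and 18.7% that fell. At initiation, 2 of the 5 ULK complex genes fell and none rose. The median change was -0.13, or -0.078 with the mean of all probe sets. RB1CC1 read 10.60, 10.54 and 10.54 in USF1 knockdown arrays and 11.32, 11.32 and 11.37 in controls. The groups were far apart relative to their spread, and the fall was 0.77 (SE 0.03, limma adjusted p = 3.23e-05). A second RB1CC1 probe set also fell, reading 9.79, 9.78 and 9.72 after knockdown and 10.22, 10.21 and 10.22 in controls, by 0.45. RB1CC1 was thus lower on both of its probe sets, although the sizes differed. ATG13, the adaptor that ties the kinase to RB1CC1, read 8.77, 8.75 and 8.71 in USF1 knockdown arrays and 8.86, 8.93 and 8.84 in controls, without overlap. It fell by 0.13 (SE 0.04, adjusted p = 0.0249), and its 3 probe sets gave -0.22 to -0.13. That call was lost without USF1 knockdown 2 or 3 (adjusted p = 0.0514 and 0.0657) and without USF1 control 1 or 2 (0.0552 and 0.0693). The stabilising subunit ATG101 differed by 0.02 (adjusted p = 0.632). The kinases themselves pointed opposite ways without passing: ULK1 differed by 0.23 (SE 0.08, adjusted p = 0.0727) and ULK2 by -0.24 (SE 0.09, adjusted p = 0.0806). Both kept their sign with any 1 array left out, but their size and whether they passed depended on single arrays. ULK1 was 0.29 without USF1 knockdown 3 (adjusted p = 0.0346) but 0.15 without USF1 control 1 (0.176), and ULK2 was -0.35 without USF1 knockdown 2 (0.00291) but -0.17 without USF1 knockdown 1 (0.220). Only 1 of the 6 ULK2 probe sets was bright.

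Among the 7 genes of the class III PI3-kinase complexes, 2 rose and none fell. RUBCN (Rubicon), an inhibitor of the UVRAG-containing complex, read 9.61, 9.64 and 9.59 in USF1 knockdown arrays and 9.36, 9.36 and 9.39 in controls. All 3 knockdown values lay above all controls, a rise of 0.24 (SE 0.03, adjusted p = 9.00e-04). That rise came from its brightest probe set, since the other bright ones gave 0.06 and -0.04, and the mean of all RUBCN probe sets rose by 0.12. BECN1 (Beclin 1), the scaffold of the complexes, rose by 0.13 (SE 0.03, adjusted p = 0.0153). Each of the 6 BECN1 probe sets passed when tested singly, with changes of 0.13 to 0.23, although the gene's call was lost without USF1 control 2 or 3 (adjusted p = 0.0539 and 0.0558). The catalytic subunit PIK3C3 (VPS34) and its kinase partner PIK3R4 (VPS15) differed by 0.07 and -0.08 (adjusted p = 0.161 and 0.0679). ATG14, which directs the complex to autophagosome sites, UVRAG, which directs it to endosomes, and the regulator AMBRA1 differed by -0.02, less than 0.01 in size and -0.08 (adjusted p = 0.745, 0.973 and 0.237).

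Of 8 genes for membrane supply and PI3P reading, 2 rose and none fell. WDR45 (WIPI4), a PI3P-binding partner of ATG2, read 10.12, 10.00 and 10.03 in USF1 knockdown arrays and 9.59, 9.71 and 9.63 in controls. The groups were well separated, a rise of 0.41 (SE 0.04, adjusted p = 6.97e-04), and the mean with its dim second probe set rose by 0.26. WIPI1, another PI3P reader, rose by 0.12 (SE 0.04, adjusted p = 0.0341) on a small margin. Its call was lost without USF1 knockdown 1 or 2 (adjusted p = 0.0876 and 0.0843) and without USF1 control 1 or 3 (0.110 and 0.106). WIPI2, which recruits ATG16L1, had an uneven response: the brightest probe set differed by 0.04 (adjusted p = 0.309), whereas the others gave -0.21 each, 1 of them past the threshold when tested singly (adjusted p = 0.00242). The closely related WDR45B differed by 0.01. The scramblase ATG9A, read only on the 2 probe sets it does not share with ABCB6, differed by 0.15 (adjusted p = 0.0661), or by 0.19 without USF1 knockdown 2 (adjusted p = 0.0187). Its second unshared probe set, tested singly, was 0.22 higher and passed (adjusted p = 0.00875). The lipid-transfer genes ATG2A and ATG2B differed by 0.01 and by less than 0.01 in size, and the scramblase VMP1 by -0.05 (adjusted p = 0.202).

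ATG2B was 1 of 5 members whose bright probe sets spread by over 0.3. Its brightest probe set read 9.73, 9.77 and 9.71 in USF1 knockdown arrays and 9.72, 9.73 and 9.75 in controls, with overlap. Another read 7.57, 7.49 and 7.31 after knockdown and 7.22, 7.29 and 7.19 in controls, higher by 0.22 (adjusted p = 0.0405). The remaining ATG2B probe sets read 7.20, 7.20 and 7.16 against 7.29, 7.24 and 7.33 in controls, and 7.88, 8.25 and 8.02 against 8.04, 8.16 and 8.02 in controls. Neither of those passed, so the gene has no single direction across its probe sets.

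In the conjugation step, 1 of 10 enzyme genes rose and 2 fell, with a median change of less than 0.01 in size. ATG16L1, which places the ATG12-ATG5 conjugate on the membrane, read 7.85, 7.85 and 7.89 in USF1 knockdown arrays and 8.08, 8.20 and 8.22 in controls. It was lower in every knockdown array, a fall of 0.31 (SE 0.04, adjusted p = 0.00171), with -0.27 on its second probe set. ATG4A, a protease that trims ATG8 proteins before conjugation, read 8.58, 8.51 and 8.52 after USF1 knockdown and 8.28, 8.36 and 8.33 in controls. It rose by 0.21 (SE 0.04, adjusted p = 0.00350), and by 0.18 on its second probe set. ATG3, the E2-like enzyme of ATG8 lipidation and the E-box gene shown above, fell by 0.12 (SE 0.04, adjusted p = 0.0453). That call was marginal and was lost without USF1 knockdown 1 or 3 (adjusted p = 0.125 and 0.110) and without USF1 control 1 or 2 (0.125 and 0.132), and narrowly without USF1 control 3.

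The other conjugation enzymes did not pass. The E1-like enzyme ATG7 differed by -0.01 (adjusted p = 0.802), the ubiquitin-like ATG12 by -0.07 (0.0984) and the E2-like ATG10 by 0.16 (0.0553). Leaving out USF1 knockdown 3 or USF1 control 3 brought ATG10 past the threshold, at 0.20 and 0.21 (adjusted p = 0.0405 and 0.0238). The proteases ATG4B, ATG4C and ATG4D differed by 0.01, -0.06 and 0.02. ATG5, the acceptor of ATG12, differed by 0.10 (adjusted p = 0.0541), or 0.12 without USF1 knockdown 3 (0.0488), but its probe sets disagreed. The brightest read 10.56, 10.64 and 10.55 in USF1 knockdown arrays and 10.47, 10.50 and 10.48 in controls, and a second read 9.57, 9.56 and 9.53 against 9.47, 9.50 and 9.55 in controls. The dimmest read 9.09, 9.05 and 9.01 after knockdown and 9.54, 9.53 and 9.55 in controls, lower by 0.49 (SE 0.03, adjusted p = 1.58e-04 among all probe sets). The mean of the 3 ATG5 probe sets was lower by 0.12 (adjusted p = 0.0128), so the direction depends on how probe sets are combined.

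In the ATG8 family itself, 2 of 5 genes rose and none fell. The median change was 0.20, which is the value of MAP1LC3A, a gene that did not pass, and it was 0.12 without USF1 knockdown 2 and 0.27 without USF1 knockdown 3. GABARAPL1 read 9.81, 9.83 and 9.82 in USF1 knockdown arrays and 9.22, 9.27 and 9.24 in controls. The knockdown arrays lay far above the controls, a rise of 0.58 (SE 0.03, adjusted p = 4.05e-05). Its other bright probe sets rose by 0.68 and 0.78, and the dim one was 0.31 higher. GABARAP read 12.09, 12.13 and 12.12 in USF1 knockdown arrays and 11.84, 11.86 and 11.82 in controls, a rise of 0.27 (SE 0.03, adjusted p = 5.60e-04). The 2 brightest GABARAP probe sets gave 0.27 and 0.26, whereas the 2 weaker ones gave 0.16 and -0.02 and did not pass, and the mean of all 4 rose by 0.17. The other 3 genes of the family did not pass. GABARAPL2 differed by 0.01 (SE 0.03, adjusted p = 0.826), with 4 probe sets between 0.01 and 0.04. MAP1LC3B (LC3B), the usual marker protein of autophagosomes, differed by 0.06 (SE 0.03, adjusted p = 0.116). MAP1LC3A read 7.59, 7.76 and 7.42 in USF1 knockdown arrays and 7.38, 7.39 and 7.38 in controls, so its knockdown arrays were scattered while its controls were tight. It differed by 0.20 (SE 0.08, adjusted p = 0.0809), by 0.29 without USF1 knockdown 3 (adjusted p = 0.00937) and by 0.12 without USF1 knockdown 2 (adjusted p = 0.125). Probe sets of GABARAPL1 and MAP1LC3B can share sequence with the near-identical GABARAPL3 pseudogene and MAP1LC3B2, so these values may combine copies.

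**Figure D2:**
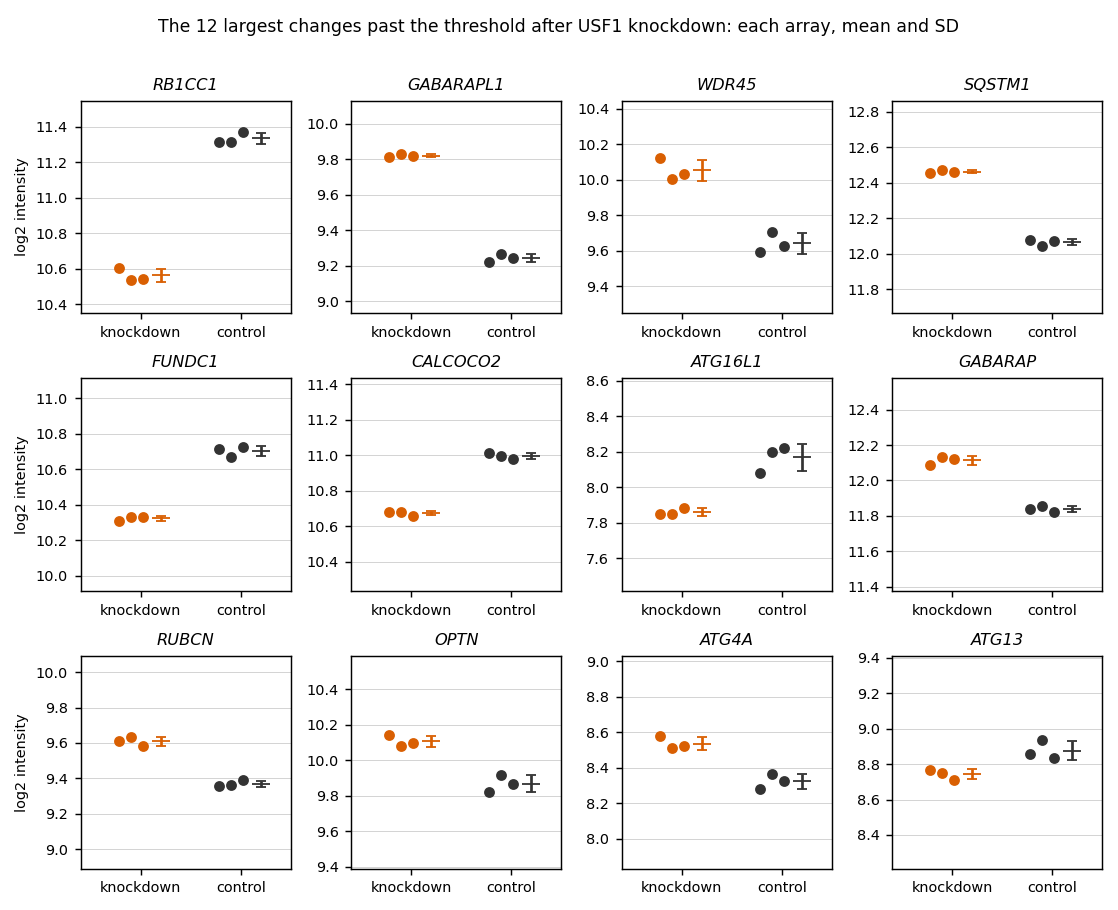
Log2 intensity of the 12 members with the largest changes past the threshold after USF1 knockdown. Points are single arrays, 3 per group with USF1 knockdown on the left and USF1 control on the right, the bar beside them is the mean with its SD, and each panel spans the same range of log2 units. The 2 groups do not overlap in any of the 12 panels, from RB1CC1 (a fall of 0.77) to ATG13 (a fall of 0.13). The panels were picked by the same arrays, and the groups did not overlap for 53.6% of all tested genes either.

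The 6 cargo receptors divided, with 2 that rose, 2 that fell and 2 that did not pass, and their median change was 0.02. SQSTM1 (p62), the receptor for ubiquitinated protein aggregates, read 12.45, 12.47 and 12.46 in USF1 knockdown arrays and 12.08, 12.04 and 12.07 in controls. It rose by 0.40 (SE 0.03, adjusted p = 1.29e-04), with every knockdown array above every control. A nearly equally bright probe set read 12.42, 12.45 and 12.45 after knockdown and 12.05, 12.01 and 12.01 in controls, and another 12.38, 12.41 and 12.38 against 12.11, 12.09 and 12.10. A dimmer one gave 11.67, 11.63 and 11.66 against 11.05, 11.11 and 11.07 in controls, the largest SQSTM1 rise at 0.58. The weakest read 9.31, 9.39 and 9.30 after knockdown and 9.27, 9.24 and 9.42 in controls, so 4 of 5 SQSTM1 probe sets rose and 1 did not pass (0.02, adjusted p = 0.777). OPTN (optineurin), which serves in mitophagy and in the removal of bacteria, read 10.14, 10.08 and 10.10 in USF1 knockdown arrays and 9.82, 9.91 and 9.87 in controls. It rose by 0.24 (SE 0.04, adjusted p = 0.00213), and all 3 OPTN probe sets rose, by 0.24 to 0.31.

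Among the receptors that fell, FUNDC1, an outer mitochondrial membrane receptor for mitophagy, read 10.31, 10.33 and 10.33 in USF1 knockdown arrays and 10.71, 10.67 and 10.72 in controls. Its only probe set fell by 0.38 (SE 0.03, adjusted p = 1.89e-04). CALCOCO2 (NDP52), a receptor for bacteria and damaged mitochondria, read 10.68, 10.68 and 10.66 after USF1 knockdown and 11.01, 10.99 and 10.98 in controls. This was a fall of 0.32 (SE 0.03, adjusted p = 2.44e-04), while the mean of its 5 probe sets fell by 0.18. Of the other CALCOCO2 probe sets, one read 10.28, 10.16 and 10.18 against 10.40, 10.42 and 10.42 in controls, and one 9.93, 9.87 and 9.89 against 10.03, 10.06 and 10.05. The next read 9.85, 9.80 and 9.67 against 9.95, 9.97 and 10.02 in controls, and the weakest 8.49, 8.43 and 8.32 against 8.38, 8.40 and 8.44. Thus 4 of the 5 fell and the weakest overlapped its controls. NBR1, which works with SQSTM1, and TAX1BP1, a relative of CALCOCO2, each differed by 0.02 (adjusted p = 0.848 and 0.582). The steps were set side by side by counts only: initiation had 0 rises and 2 falls among 5 genes, the conjugation enzymes 1 and 2 among 10, the ATG8 genes 2 and 0 among 5, and the receptors 2 and 2 among 6. Over all tested genes 40.7% passed (22.0% rose and 18.7% fell), and counts this small are no result about the steps. No difference between steps was tested.

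**Figure D3:**
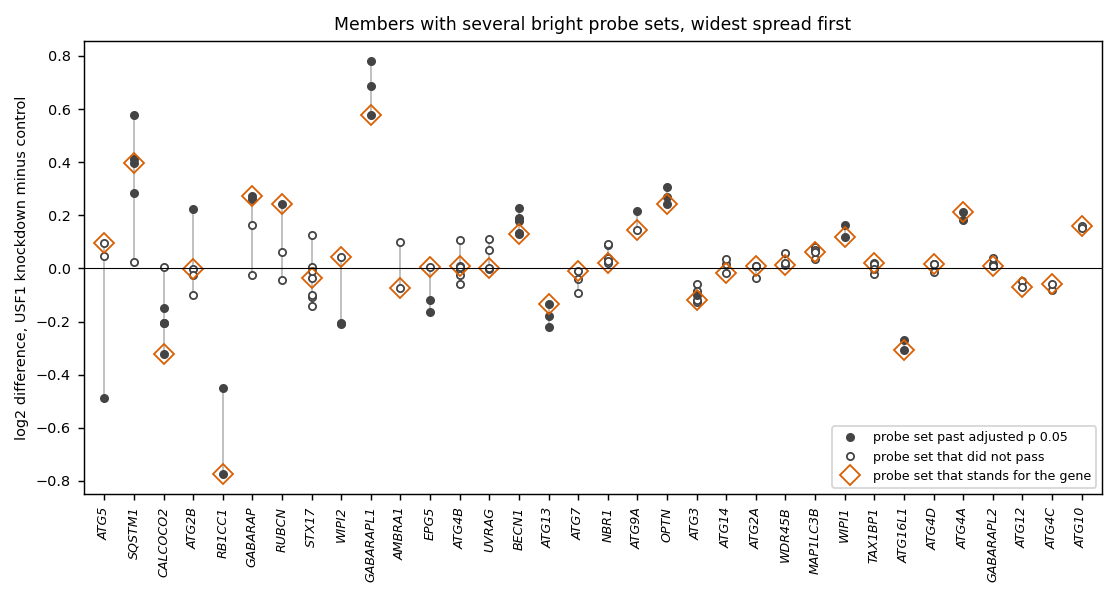
Log2 difference after USF1 knockdown for each bright probe set of the 34 members that have at least 2, ordered by the spread within the gene. Filled points passed an adjusted p of 0.05 among all probe sets, open points did not, and the orange diamond marks the probe set that stands for the gene. ATG5, SQSTM1, CALCOCO2, ATG2B and RB1CC1 spread by over 0.3, and no gene had probe sets past the threshold in both directions.

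At the last step, TECPR1, a tether that binds the ATG12-ATG5 conjugate, rose by 0.09 (SE 0.03, adjusted p = 0.0432), the smallest change that passed. The TECPR1 call was lost without USF1 knockdown 1 or 3 (adjusted p = 0.116 and 0.0708) and without USF1 control 1, 2 or 3 (0.102, 0.0777 and 0.132), and with the replicate number as a block (0.0893). Quantile normalization (limma adjusted p = 0.0594) and an intensity trend with robust prior (0.0759) also removed it, as did testing among all probe sets (0.0581). In all, 10 of 15 alternatives lost the call. The fusion SNARE STX17 differed by -0.04 (adjusted p = 0.436), with 7 bright probe sets from -0.14 to 0.13. EPG5, a tether of autophagosomes to lysosomes, differed by less than 0.01 on its brightest probe set (adjusted p = 0.910), whereas its 2 other probe sets were lower, by 0.16 and 0.12 (adjusted p = 0.0138 and 0.0287 among all probe sets). Bright probe sets differed in sign after USF1 knockdown, all within a spread of 0.3, also in AMBRA1 (-0.08 to 0.10), UVRAG (under 0.01 in size to 0.11), ATG4B (-0.06 to 0.11), ATG2A (-0.04 to 0.01), ATG14 (-0.02 to 0.04), ATG4D (-0.01 to 0.02) and TAX1BP1 (-0.02 to 0.02). None of these passed. Over all members, 43 of 128 bright probe sets passed when tested singly, or 33.6%, against 37.3% of all bright probe sets.

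Genes around the members were taken from 4 further lists, whose counts stand beside 22.0% of all tested genes that rose and 18.7% that fell. In the order below, 18 of 41, 6 of 14, 9 of 21 and 18 of 25 genes passed, against 40.7% of all tested genes. No list was tested as a set. Of 41 tested MTOR, AMPK and TFEB regulators 11 rose and 7 fell, with a median change of 0.03. TP53INP1 and TP53INP2, which promote autophagosome formation, rose by 0.86 and 0.45, whereas the mTORC1 inhibitor DDIT4 fell by 0.88 and the AMPK subunit PRKAG2 by 0.55. Among 14 tested mitophagy and other selective receptor genes 4 rose and 2 fell. The mitophagy receptor BNIP3L and the kinase PINK1 rose by 0.39 and 0.31, and BCL2L13 and the receptor-activating kinase TBK1 fell by 0.24 and 0.13. In a list of 21 further genes for expansion, tethering and fusion 7 rose and 2 fell, among them the lysosomal adaptor PLEKHM1 (0.34), ATG16L2 (0.29), the PI3-kinase subunit NRBF2 (0.18) and BCL2L1 (0.20), whose protein binds Beclin 1. Of 25 tested lysosomal genes 14 rose and 4 fell, with a median of 0.13, including rises of the cathepsin gene CTSB by 0.32, CD63 by 0.27 and the sterol carrier NPC2 by 0.25 and a fall of LAMP1 by 0.80. The adjusted p-values of these 16 named genes ran from 2.14e-05 for LAMP1 to 0.0115 for TBK1 (limma, n = 3 against 3).

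In the UGT1A3 pair, with 1 array per group, differences had no replicate check and describe 2 arrays. At least 1.2-fold either way was taken as the mark, which 14 members passed, or 31.8%, against 27.6% of all 11620 measured genes. Of these, 12 were higher and 2 lower in the knockdown array, against 15.6% of all genes higher and 1392 of 11620 lower. The median difference over the members was 0.07, against 0.02 over all genes.

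Of the ATG8 family, 4 of 5 genes were at least 1.2-fold higher in the UGT1A3 knockdown array, as were 15.6% of all genes. The other one was above 0, where 6054 of 11620 genes lay, and the median difference of the family was 0.34. GABARAPL1 read 9.55 in the UGT1A3 knockdown array and 8.94 in its control, a difference of 0.60. GABARAP read 11.70 in the knockdown array against 11.35 (0.35), MAP1LC3A 7.39 against 7.05 (0.34) and GABARAPL2 11.12 against 10.80 (0.32). MAP1LC3B stayed under the mark, at 10.61 in the knockdown array against 10.46. The bright GABARAPL1 probe sets gave 0.46 to 0.61, whereas those of GABARAP ran from 0.02 to 0.35, and averaging all 4 gave 0.19. GABARAPL2 was read on another probe set than in the USF1 arrays, which itself gave 0.28 here. The 4 GABARAPL2 probe sets ran from 0.18 to 0.32.

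Outside that family the PI3P readers gave the largest differences, in opposite directions. WIPI1 read 7.86 in the UGT1A3 knockdown array and 7.20 in its control, higher by 0.65. Its second probe set, at 7.64 and 6.98, gave exactly the same difference (0.65353), so it is not taken as a separate reading. WIPI2 read 9.04 in the knockdown array against 9.54, a difference of -0.51, with 3 probe sets from -0.56 to -0.20. WDR45 was higher, at 9.06 in the knockdown array against 8.74 (0.32). WDR45B read 8.61 against 8.88 (-0.27), but only on 1 of 3 probe sets, the others being at -0.02.

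At initiation ULK2 read 5.23 in the UGT1A3 knockdown array and 4.84 in its control, higher by 0.39 at a low intensity. The PI3-kinase adaptor ATG14 read 7.35 in the knockdown array against 6.98 (0.37), on 2 of its 3 bright probe sets, the third being at 0.00. RB1CC1 read 10.03 in the knockdown array against 9.94, a difference of 0.09. Among the conjugation enzymes ATG10 passed the mark, at 6.77 in the knockdown array against 6.38 (0.38). ATG16L1 read 7.69 in the knockdown array against 7.52 (0.17), under the mark, but with the mean of its 2 probe sets it was past it (0.27). The 6 probe sets of ATG4B ranged from -0.35 to 0.37 around a gene value of -0.10.

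Of the receptors, OPTN read 9.22 in the UGT1A3 knockdown array and 8.89 in its control (0.33), with probe sets up to 0.67. FUNDC1 read 9.61 in the knockdown array against 9.29 (0.32). SQSTM1, on another probe set than in the USF1 arrays, stayed under the mark at 11.62 in the knockdown array against 11.45, as did NBR1 (0.05), TAX1BP1 (-0.10) and CALCOCO2 (-0.20). STX17 of the fusion step read 7.62 in the knockdown array and 7.24 in its control (0.38), and all 7 of its bright probe sets were higher, by 0.13 to 0.67. In all, 30 of the 44 members lay within 1.2-fold.

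Set beside each other, both knockdowns had higher GABARAPL1, at 0.58 after USF1 knockdown and 0.60 in the UGT1A3 pair. The 5 members that rose after USF1 knockdown and were at least 1.2-fold higher in the UGT1A3 pair were GABARAPL1, GABARAP, OPTN, WDR45 and WIPI1, or 11.4% of members, against 6.14% of 11130 genes measured in both sets. No member fell after USF1 knockdown and was also 1.2-fold lower in the UGT1A3 pair, against 3.18% of those genes. CALCOCO2, which fell after USF1 knockdown, was under the mark in the pair as a gene. Its 5 bright probe sets there ran from -0.27 to -0.18, with 1 past the mark. FUNDC1 passed both marks in opposite directions, at -0.38 after USF1 knockdown and 0.32 in the UGT1A3 pair, as did 4.18% of those genes. With the mean of all probe sets ATG16L1 did so too, and GABARAP (0.19) was no longer past the mark in the pair. RB1CC1 differed by -0.77 and 0.09 in turn, and SQSTM1 by 0.40 and 0.17. The difference between the 2 knockdowns was not tested, since the UGT1A3 pair has no replicates.

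**Figure D4:**
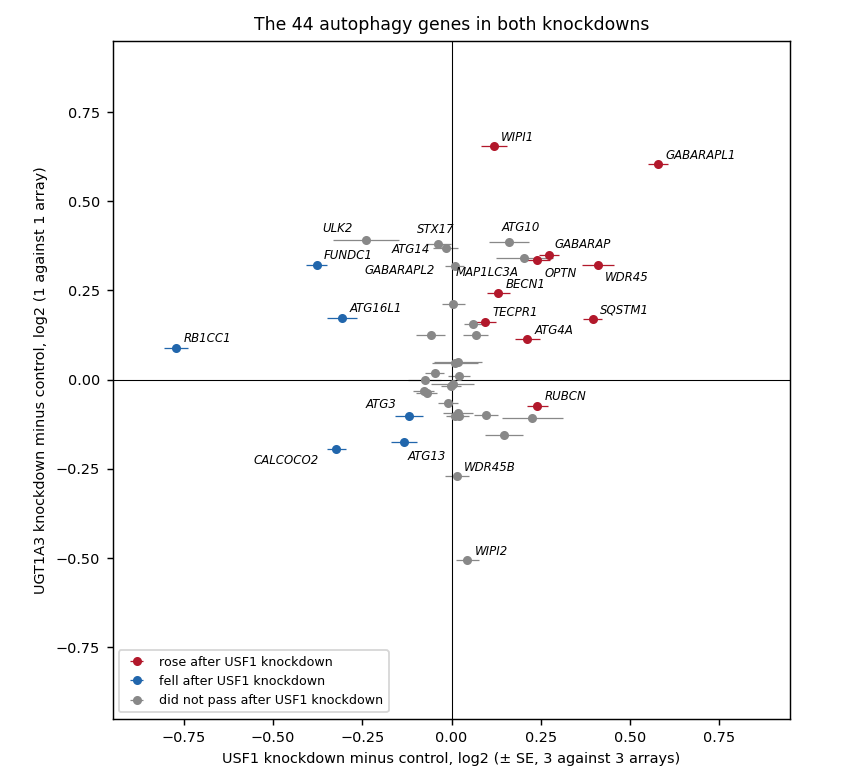
Each point is 1 of the 44 genes, with its log2 difference after USF1 knockdown (horizontal, with the moderated standard error) and in the UGT1A3 pair (vertical, 1 array against 1). Colours give the limma call after USF1 knockdown, and genes past either mark are named. GABARAPL1 stands alone at the upper right, at 0.58 and 0.60, and RB1CC1 alone at the far left, at -0.77 and 0.09.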

How the data were processed

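Total RNA of H1299 cells was hybridised to Affymetrix arrays. The deposited values, 1 per probe set and array, were read as log2 intensities from their range. The submitters' processing notes name MAS5, without a role or version. How arrays were scaled to each other was not stated in the labels or headers. Of 49395 probe sets, 102 controls were left out, and 44988 carried 1 gene symbol in the platform annotation. Another 7 probe sets that a member shares with another gene (ATG9A with ABCB6, VMP1 with MIR21) were not used.

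Values were used as deposited, on that inferred log2 scale. USF1 arrays were fitted with limma 3.58.1 (lmFit, eBayes, R 4.3.3) over 11448 genes, two-sided with Benjamini-Hochberg adjustment, and separately over all bright probe sets. SE is the moderated standard error. The number of arrays limits the precision, with a median within-group SD of 0.04 over members and 0.05 over all tested genes. Numbers were not taken as pairs, since the labels do not say that a number pairs the arrays. Deviations of same-numbered USF1 arrays correlated at -0.10, 0.20 and 0.09, and those of differently numbered arrays at -0.27 to 0.19. With 3 arrays per group these values cannot settle whether the arrays were paired.

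The members and lists were chosen with earlier results of these data known. By rule, values per array are given for the 12 largest changes that passed and for members whose bright probe sets spread by over 0.3. The rule also took members whose probe sets differ in sign, and for those with a smaller spread only ranges are given. Up to 4 genes per further list are named by smallest adjusted p. Alternatives covered scaling, dim limits, an added 16 units, probe set choice, variance model, replicate block and each array left out.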

Additional observations from a re-analysis of the deposited data

How the results depend on the processing

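Over 15 alternatives the number of members that rose after USF1 knockdown was 7 to 14 and the number that fell 4 to 9, and 11 of the 16 calls held under all of them. These 11 were RB1CC1, GABARAPL1, SQSTM1, FUNDC1, CALCOCO2, GABARAP, WDR45, RUBCN, ATG16L1, OPTN and ATG4A. Calls of ATG13, BECN1, WIPI1, ATG3 and TECPR1 were lost under at least 1, all 5 of them with no dim limit (adjusted p = 0.0698, 0.0502, 0.0908, 0.110 and 0.117), and 11 other members passed under at least 1. With the mean of all probe sets WIPI2 (-0.12, adjusted p = 0.0214), ATG5 (-0.12, 0.0128) and EPG5 (-0.093, 0.0258) turned downward and passed. With the replicate number as a block, 9 members rose, 6 fell and 4233 genes passed in all, against 4657 without it, and only the TECPR1 call was lost. In the UGT1A3 pair 10 to 13 members were at least 1.2-fold higher over 7 alternatives, and 1 in place of 2 was lower with 16 units added or with the mean of all probe sets, where WDR45B gave -0.26 and -0.10. In that pair ATG14 was under the mark with the mean (0.21), and BECN1 passed it with quantile normalization (0.27). Limits are 3 arrays per group, small changes, and dim UGT1A probe sets.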
